A study of Homo sapiens with 15 samples.

Results

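The 3 genes described here, HMGA1, HMGA2 and LMNB1, encode chromatin and nuclear lamina proteins used as markers of cellular senescence, the lasting arrest of division that cultured fibroblasts enter. They were found by gene name in 4 deposited tables of RNA sequencing, which together hold 4872 genes. They were chosen by their signals and the authors' fold changes in these tables, so their levels and the differences between groups are a description and carry no test. The tables come from 15 libraries, in 5 groups of 3, all made from WI-38, fibroblasts of human fetal lung that stop dividing after a limited number of passages.

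There are control groups at PD30 and at PD45, and 3 treated PD45 groups, with GW8510, siSRC2 or siSRC4. PD30 and PD45 are the 30th and 45th cell generation by the labels, and the PD45 cells are described as senescent. GW8510 blocks kinases, cyclin-dependent ones among them, and siSRC2 and siSRC4 are read from the sample names as siRNAs against SRC, a non-receptor tyrosine kinase. Every group received lipo3000, a lipofection reagent. NC, read as a control siRNA, was added in the PD45 control and with GW8510 but is not given for the PD30 control. DMSO is given for every group except the GW8510 group. The effect of the compound and the absence of DMSO cannot be told apart by the labels, and neither can generation and the control siRNA. The headings of both siRNA tables conflict with their library columns. The table whose mean and fold columns are headed siSRC holds libraries named siSRC2, and the one headed siSRC2 holds libraries named siSRC4. The library names, which match the sample titles, were followed, so which siRNA each value below belongs to rests on those names. All libraries are of 1 cell line, and the labels do not say whether the libraries of a group were separate cultures.

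HMGA1 and HMGA2 are small proteins that bind AT-rich DNA in its minor groove through short AT-hook motifs and bend it. They are known as architectural parts of the heterochromatin foci that form in senescent fibroblasts, and HMGA2 is also a gene of embryonic and tumour growth. LMNB1 encodes lamin B1, a filament protein under the inner nuclear membrane that tethers silent chromatin, and its loss is a widely used sign of senescence. A rise of HMGA genes and a fall of LMNB1 thus belong to the same textbook state from opposite sides.

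RefSeq start-site windows (GRCh38.p14) matched 2 of the 3 genes, HMGA1 and LMNB1. The 250 bases before the start of the principal transcript are shown to place both genes beside each other, with capitals marking GGGCGG, the GC box, and CCAAT, each in either orientation. The HMGA1 stretch lies at chr6:34236623-34236872 and the LMNB1 stretch at chr5:126776886-126777135, both on the plus strand.
HMGA1: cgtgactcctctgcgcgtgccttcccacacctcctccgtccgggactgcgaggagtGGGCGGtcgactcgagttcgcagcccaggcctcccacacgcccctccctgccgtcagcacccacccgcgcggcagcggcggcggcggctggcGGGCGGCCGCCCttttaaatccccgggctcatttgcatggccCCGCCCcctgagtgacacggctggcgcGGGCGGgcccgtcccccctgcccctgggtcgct
LMNB1: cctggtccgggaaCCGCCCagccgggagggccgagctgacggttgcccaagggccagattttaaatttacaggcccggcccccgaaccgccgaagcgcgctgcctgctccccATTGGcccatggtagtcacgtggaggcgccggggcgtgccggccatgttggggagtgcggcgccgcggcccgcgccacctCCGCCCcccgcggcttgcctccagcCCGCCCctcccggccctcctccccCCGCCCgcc
The HMGA1 stretch held 5 GC boxes and no CCAAT. LMNB1 held 4 GC boxes and 1 CCAAT on the minus strand, read as ATTGG in the printed strand, at position -138 from the start. No match overlapped another. Over all 35116 windows of this length, 42.6% held a GC box and 32.0% a CCAAT. GC content was 74.8% for HMGA1 and 75.6% for LMNB1, a level that 10.8% and 9.34% of all windows reached. Inside the GC-rich LMNB1 stretch sits a run of 12 A or T bases, ATTTTAAATTTA, and 11.04% of windows had a run at least as long. Windows at other annotated starts of these genes, not printed here, differed. That of HMGA1 held 1 CCAAT and no GC box, and that of LMNB1 held neither. All these matches describe the letters of a window only.

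Expression is given as the authors' deposited normalized signal, whose unit (TPM or FPKM) is not named in the file headers, so read depth is unknown. Each table lists only genes with an adjusted p under 0.05 and a fold change of at least 1.5 against the PD45 control, and genes outside a table were not analysed here. That limit is on the authors' fold. Folds below are ratios of mean signals unless named as the authors', so some lie under 1.5. Within every group the libraries were alike, with Pearson correlations of log2(signal + 1) between 0.979 and 0.994 across the genes of a table. SRC itself stood at 10.6 to 11.6 with siSRC2 and 9.51 to 11.8 with siSRC4, against 19.0 to 20.5 in the PD45 control. Marker counts below stand beside all genes tested, of which 15.3% were listed for PD30, 11.8% for GW8510 and 2.64% for siSRC2. Of 10 lung fibroblast markers 4 were listed for PD30, 3 higher (VIM 1.68-fold, COL3A1 3.28-fold, PDGFRA 1.49-fold) and S100A4 4.75-fold lower. Their summed signal was 5674 to 6071 at PD30 and 3724 to 3923 in the PD45 control. VIM made up most of that sum, with 5162 to 5585 at PD30 and 3158 to 3346 in the control. The sum thus hides the opposite move of S100A4. COL3A1, a fibrillar collagen, was also the 1 fibroblast marker listed for GW8510 (1.76-fold higher) and for siSRC2 (1.96-fold higher). Of 14 markers of epithelial, endothelial and blood cells 4 were listed for PD30 (KRT8, KRT18, KRT19 and HCLS1), and their summed signal was 51.0 to 56.8 at PD30 and 170 to 196 in the PD45 control. KRT19, CD68 and HCLS1 were listed for GW8510, summing to 239 to 282 against 185 to 201 in the PD45 control. Of these KRT19 was higher with GW8510 (mean 235 against 135), and CD68 (28.1 against 48.0) and HCLS1 (4.74 against 7.75) were lower. KRT19 was the 1 marker listed for siSRC2 (72.3 to 75.1 against 122.7 to 148). No listed marker was at 0 in any library, and their part in the results below was not tested. In bulk RNA, fewer cells that carry a transcript and less transcript per cell cannot be told apart.

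HMGA2 was low in the younger cells, high at PD45 and low again with GW8510. Its signal was 64.7, 67.6 and 74.2 in the PD30 libraries. In the PD45 control the libraries held 212, 180 and 175. The GW8510 libraries held 51.3, 46.0 and 32.8. Every PD45 control library lay above every library of the other groups, and the GW8510 libraries also lay below all PD30 libraries. The GW8510 group was the least even, with an SD of 22.0% of its mean, against 7.08% at PD30 and 10.5% in the control, and the library of replicate 3 held the lowest value.

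The HMGA2 means were 68.9 ± 4.88 at PD30, 189 ± 19.8 in the PD45 control and 43.4 ± 9.55 with GW8510 (SD, n = 3). The signal at PD30 was thus 36.4% of the PD45 control, 2.74-fold lower, and with GW8510 it was 22.9%, 4.36-fold lower. The authors' deposited table gave HMGA2 a log2 fold change of -1.56 for PD30 (authors' adjusted p = 8.43e-83) and -2.19 for GW8510 (authors' adjusted p = 6.27e-67). HMGA2 had the 4th smallest p of the 1845 genes listed for GW8510, and the 43rd largest fold among the 1130 listed lower. At PD30 it was in place 53 of 2845 by p and in place 396 of the 1314 lower genes by fold. Both comparisons use the same PD45 control libraries. GENCODE release 29 annotates 4 genes that overlap HMGA2, 3 of them on the opposite strand, and without a stated strand setting their reads cannot be told apart from those of HMGA2.

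HMGA1 was listed for siSRC2 alone. Its signal was 713, 660 and 668 in the siSRC2 libraries. The PD45 control libraries held 1077, 998 and 894. All siSRC2 libraries lay below all control libraries, and the control spread over a wider range than the treated group. The means were 680 ± 28.5 and 989 ± 91.7 (SD, n = 3), a 1.45-fold lower signal with siSRC2, or 68.7% of the control. The authors' deposited table gave HMGA1 a log2 fold change of -0.65 (1.57-fold lower, authors' adjusted p = 1.96e-26). By p the gene stood in place 9 of the 331 listed, and by fold in place 114 of the 158 listed lower, so a small change among listed genes had one of the small p-values. By its headings that table is of siSRC, by its library names of siSRC2. GENCODE release 29 holds 8 genes named as copies of HMGA1, 7 typed as processed pseudogenes and HMGA1P4 as antisense, none of them in a table, and how reads shared with such copies were counted is not given in the sources used here, so the level of HMGA1 is uncertain.

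LMNB1 ran opposite to HMGA2 in PD30 and PD45 cells and rose only slightly with GW8510. The PD30 libraries held 14.4, 15.8 and 16.0. The PD45 control libraries held 2.07, 1.93 and 1.54, and the GW8510 libraries 2.42, 2.37 and 3.07. The PD30 libraries stood far above the rest, and the GW8510 and control libraries sat close together without overlapping. The means were 15.4 ± 0.886 at PD30, 1.85 ± 0.275 in the PD45 control and 2.62 ± 0.391 with GW8510 (SD, n = 3).

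The LMNB1 signal at PD30 was 8.34-fold that of the PD45 control. With GW8510 it was 1.42-fold the control, a step of 0.773 signal units where PD30 and PD45 differ by 13.5, or 5.71% of that distance. That share is on the linear scale. As log2 ratios of mean signals the steps were 0.50 with GW8510 and 3.06 at PD30, so GW8510 covered a larger share on that scale. The authors' deposited table gave LMNB1 log2 fold changes of 3.13 for PD30 (authors' adjusted p = 1.04e-98) and 0.71 for GW8510 (authors' adjusted p = 0.00487). LMNB1 had the 35th smallest p of the genes listed for PD30 and place 1482 of 1845 for GW8510. By the authors' fold, 1.64 for GW8510, it was in place 467 of the 715 genes listed higher for GW8510 and in place 117 of 1531 for PD30. The authors' log2 fold changes for GW8510 exceeded the log2 ratios of mean signals by a median of 0.12 over the listed genes, and for LMNB1 they were 0.71 and 0.50.

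**Figure D1:**
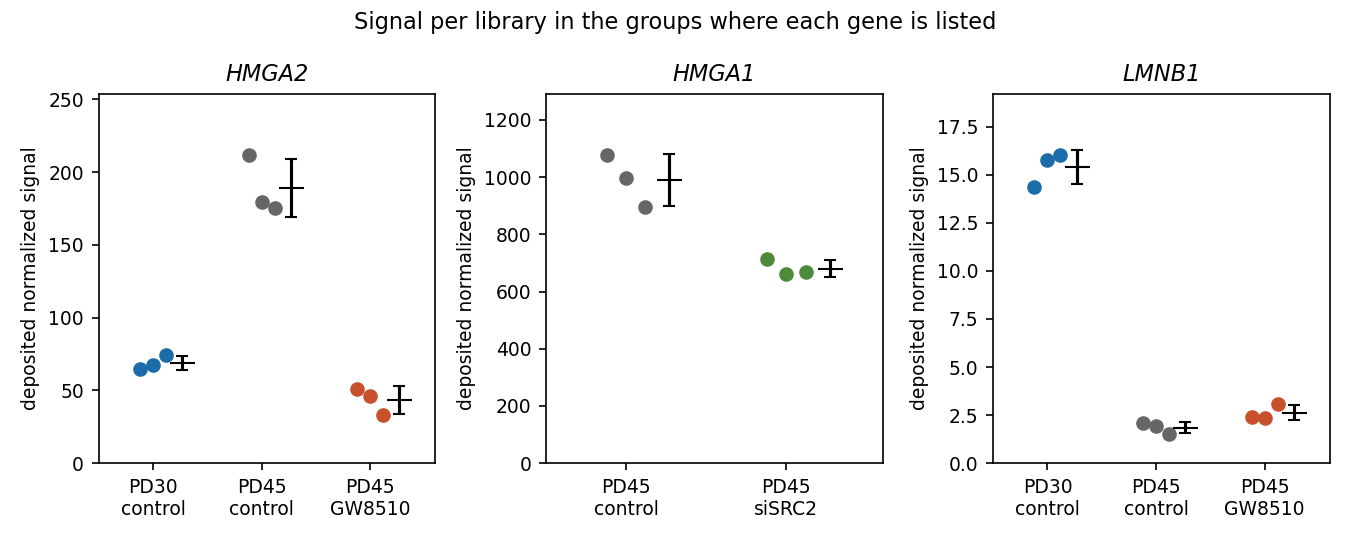
Deposited normalized signal (vertical axes, linear, from 0) of HMGA2, HMGA1 and LMNB1 in each library, by group. Points are libraries, and the black mark beside them is the mean with its SD (n = 3). HMGA2 is highest in the PD45 control, HMGA1 is lower with siSRC2, and LMNB1 is near 15.4 at PD30 and under 3.1 in every PD45 library shown.

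Of the 3 genes, 2 were listed for PD30, where 15.3% of the 18575 genes the authors tested were listed, 7.07% lower as HMGA2 was and 8.24% higher as LMNB1 was. For GW8510 the same 2 were listed, where 11.8% of 15574 genes were, 7.26% lower and 4.59% higher. HMGA1 was listed for siSRC2, where 2.64% of 12549 genes were, 1.26% lower and 1.38% higher. None was listed for siSRC4, where 8.77% of 14598 genes were, 4.86% lower and 3.91% higher, and absence from a table does not show that a gene was unchanged. In all 5 listings no treated or PD30 library fell within the range of the control, as in 93.6% of listed genes for PD30, 90.6% each for GW8510 and siSRC2 and 88.8% for siSRC4. These comparisons chose the genes, so nothing is read from the counts.

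The deposited tables do not compare GW8510-treated cells with PD30 cells, and HMGA2 and LMNB1 are in both tables needed for it. Both genes had lower signals with GW8510 than at PD30, and for both the 3 GW8510 libraries lay below the 3 PD30 libraries. As ratios of mean signals, LMNB1 was 5.88-fold and HMGA2 1.59-fold lower with GW8510 than at PD30. The LMNB1 level was thus far below that of the younger cells, at 17.0% of the PD30 mean. HMGA2 lay on the other side of the PD30 level from the PD45 control, at 63.0% of the PD30 mean.

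A limma fit on the log2(signal + 1) scale over the 527 genes listed in both tables with a mean signal of at least 1 gave a difference of -2.18 ± 0.130 (SE) for LMNB1 and -0.68 ± 0.146 for HMGA2. The signals of these libraries were among the values that chose the genes, so no p is given. LMNB1 was near the lower edge of the genes fitted, with 22 more negative, whereas 162 were more negative than HMGA2. When each library was centred on the median of these genes, an alternative chosen after seeing the data, the median difference went from -0.16 to 0.16, HMGA2 to -0.35 and LMNB1 to -1.86. The difference of the authors' own log2 fold changes, computed from the authors' deposited tables, was -0.63 for HMGA2 and -2.42 for LMNB1.

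**Figure D2:**
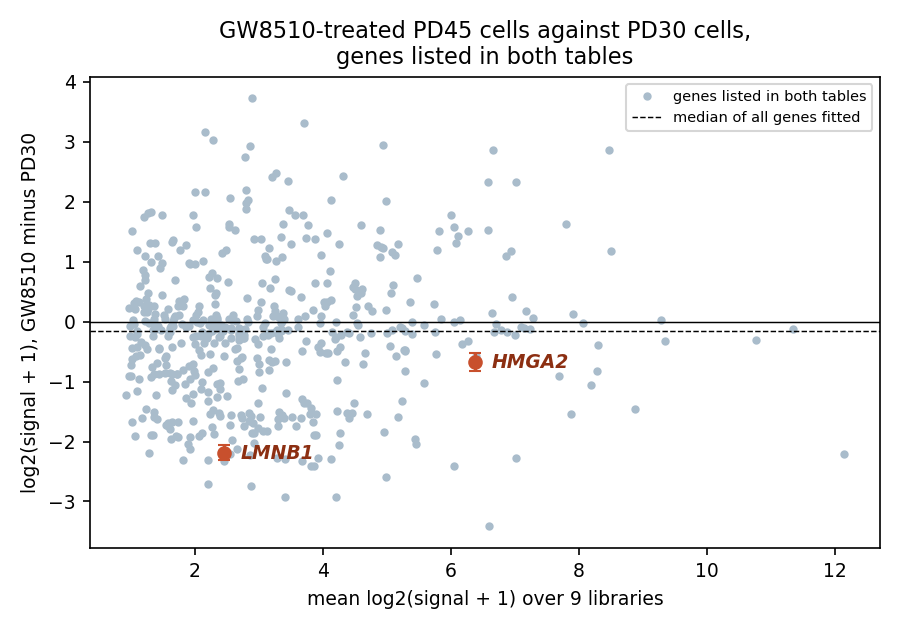
Difference between GW8510-treated PD45 cells and PD30 cells (vertical axis, log2(signal + 1)) against mean level over 9 libraries (horizontal axis, log2(signal + 1)) for 527 genes listed in both tables; bars on the labelled genes are the SE, and the solid line is at 0. LMNB1 at -2.18 is near the lower edge of the cloud, HMGA2 at -0.68 is closer to the dashed median of -0.16.

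Genes whose signal moved most like that of each marker were ranked by Pearson correlation of log2(signal + 1), as a description, since the libraries are shared and fall into few groups. For LMNB1, over 9 libraries and 526 other genes, the 5 leading genes were CCNB2, KIF4A, PRC1, IQGAP3 and BUB1, with r between 0.992 and 0.994. CCNB2 encodes the mitotic cyclin B2, KIF4A a kinesin of chromosomes and the spindle midzone, PRC1 a microtubule bundler of cytokinesis and BUB1 a spindle checkpoint kinase. CCNB2 held 38.2, 40.0 and 44.1 at PD30, 5.49, 4.22 and 5.15 in the PD45 control and 6.34, 7.28 and 8.58 with GW8510. Like LMNB1, CCNB2 was high in all PD30 libraries and only slightly above the control with GW8510. The 5 genes were picked for their likeness to LMNB1 in these libraries, so nothing further is read from the shared pattern. BUB1 had means of 10.1, 0.973 and 1.55 in the same order of groups, and PRC1 had 50.2, 5.32 and 8.73.

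For HMGA2, over the same libraries and genes, the leading genes were ITGB3, DDX10, FAM227B, UBL3 and DRP2, with r between 0.979 and 0.990. ITGB3 encodes integrin beta 3, DDX10 an RNA helicase and UBL3 a ubiquitin-like protein. ITGB3 held 7.60, 7.33 and 7.91 at PD30, 15.8, 14.5 and 14.3 in the PD45 control and 6.31, 6.85 and 5.38 with GW8510. DDX10 held 9.64, 9.32 and 10.7 at PD30, 26.9, 23.9 and 20.4 in the PD45 control and 6.92, 7.05 and 6.39 with GW8510. In both genes the control libraries were above all others and the GW8510 libraries below all PD30 libraries, which is the order seen for HMGA2. Both were picked for their likeness to HMGA2 in these libraries, so nothing further is read from the shared order. For HMGA1 the comparison covered 6 libraries and 309 other genes of the siSRC2 table, and NFKBIE, CEND1, H2BC21, KRTAP2-3 and TP53INP1 led with r between 0.989 and 0.994. NFKBIE, an inhibitor of NF-kappaB, had means of 8.69 with siSRC2 and 13.8 in the control, and TP53INP1, a p53-induced gene, 7.14 and 13.3.

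**Figure D3:**
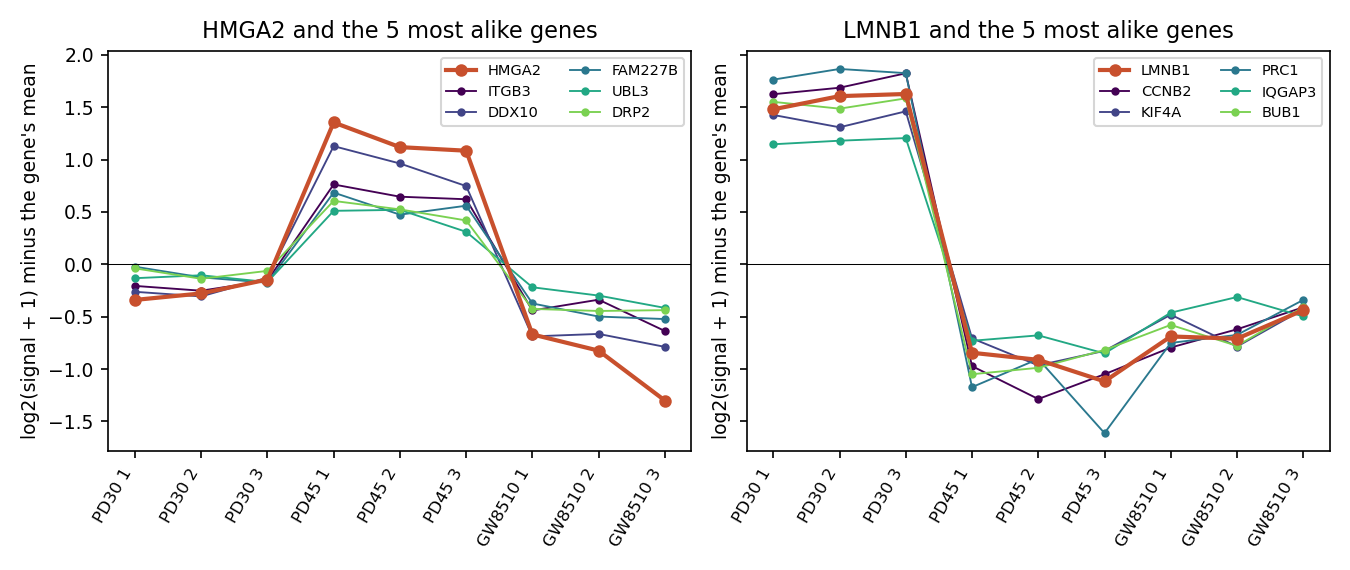
Log2(signal + 1) minus each gene's mean (vertical axis) in the 9 libraries of the PD30, PD45 control and GW8510 groups (horizontal axis), for HMGA2 and LMNB1 (thick lines) and the 5 genes most alike to each. Lines join libraries of different groups only to make each gene traceable. HMGA2 and its set peak in the PD45 control, and LMNB1 and its set are high at PD30 alone.

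Other genes of the nuclear periphery and of chromatin were taken from 6 lists, which hold 111 genes besides LMNB1. For PD30, 35 of them (31.5%) were listed, beside 15.3% of all genes tested. The lists were chosen with earlier results of these data known, so this share and those below are descriptions only. Of these 35, 33 were higher and 2 lower at PD30, with a median authors' log2 fold change of 1.16. The median was 0.64 over all 2845 listed genes, where higher and lower genes are mixed. Over the 1531 genes listed higher it was 1.17, close to that of the list genes. The other genes of the lists have no value in that table. Of 29 genes of the lamina and envelope list 8 were listed for PD30, LMNB1 among them, 7 higher and 1 lower (median 0.91). LMNB2, the other B-type lamin, was 1.67-fold higher at PD30, with 99.9, 90.9 and 93.3 against 58.1, 50.7 and 61.0, a smaller ratio than the 8.34 of LMNB1. TMPO, which encodes the lamin-binding LAP2 proteins, was 2.51-fold higher (17.8 ± 0.442 against 7.07 ± 1.47), and NRM, the inner membrane protein nurim, 2.07-fold. SYNE1, a nesprin that links nucleus and cytoskeleton, was the 1 gene listed lower, and its libraries overlapped those of the control. LMNA was not listed in any of the 4 tables.

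The HMG box and HMGN proteins are chromatin proteins that bend DNA or bind nucleosomes, and the families are named, like HMGA, for high mobility on gels. Of 15 such genes 6 (40%) were listed for PD30, all higher, the opposite direction to HMGA2. Among all genes tested 15.3% were listed for PD30, 8.24% of them higher. The median of the 6 was 1.09, beside 1.17 over all genes listed higher. HMGB2 held 51.7, 52.1 and 59.3 at PD30 and 14.8, 11.2 and 11.5 in the PD45 control, a 4.35-fold difference. HMGB1 was 2.45-fold higher (409 ± 23.6 against 167 ± 7.44), HMGN2 3.06-fold and HMGB3 2.33-fold. None of the 15 was listed for GW8510 or siSRC2, beside 11.8% and 2.64% of all genes tested. HMGN3 and TOX were listed lower for siSRC4, HMGN3 by 1.49-fold (23.1 ± 3.11 against 34.3 ± 2.79). TOX, at a signal under 5 and named after its values were seen, was 2.11-fold lower.

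Among 34 genes of heterochromatin and senescence-associated foci 9 (26.5%) were listed for PD30, all higher (median 1.28). The shares in this paragraph stand beside 15.3% of all genes tested that were listed for PD30, and 8.24% listed higher. The median over all genes listed higher was 1.17. HELLS, a chromatin remodeller needed for DNA methylation, was 4.33-fold higher (6.47 ± 1.56 against 1.49 ± 0.405) and UHRF1, which brings the maintenance methylase to replicated DNA, 2.84-fold. CDCA2, a chromatin-bound phosphatase subunit of mitotic exit, was 2.65-fold higher, and MACROH2A2, a macroH2A histone variant of silent chromatin, 2.38-fold. Of the 12 genes of Polycomb repressive complex 2, which methylates histone H3 at silenced genes, 3 (25%) were listed, all higher. Its catalytic subunit EZH2 was 3.32-fold higher (5.58 ± 0.597 against 1.68 ± 0.150), PHF19 2.46-fold and RBBP4 1.66-fold. Histone chaperones gave 8 of 15 (53.3%), all higher (median 1.49). Among them ASF1B was at 8.40-fold, HJURP at 5.08-fold, CENPA, the centromeric histone, at 5.00-fold and MCM2 at 2.78-fold. ASF1B, which hands new histones to replicating DNA, held 13.7, 10.2 and 13.2 at PD30 and 1.47, 1.15 and 1.80 in the control. Of the linker histones 2 of 7 (28.6%) were listed, H1-10 higher by 1.87-fold and H1-2 lower.

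With GW8510, 6 of the 111 genes (5.41%) were listed, beside 11.8% of all genes tested, 4 higher and 2 lower. No gene of the lamina and envelope list other than LMNB1 was among them. H1-2 was 1.99-fold higher. ASF1B, CHAF1B and CENPA were the 3 histone chaperone and centromere genes listed higher. They were named after their values were seen, since all were under a mean signal of 5, and ASF1B was 3.16-fold higher, CENPA 1.77-fold and CHAF1B 1.75-fold. ASF1B held 5.10, 3.72 and 5.16, above every control library and below every PD30 library, as LMNB1 did. The 2 genes listed lower were ATRX, a remodeller of heterochromatin (2.55-fold, 3.46 ± 0.844 against 8.84 ± 1.68), and SMCHD1, a structural protein of silenced chromosomes (1.996-fold, 5.40 ± 0.498 against 10.8 ± 0.995).

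For siSRC2, where HMGA1 was listed, none of the 111 genes was, beside 2.64% of all genes tested. With siSRC4, 10 (9.01%) were listed, close to the 8.77% of all genes tested, 2 higher and 8 lower. Their median authors' log2 fold change was -0.63. It was -0.61 over all 1280 listed genes, where higher and lower genes are mixed, and -0.76 over those listed lower. Of the lamina and envelope list 4 were listed. LBR, the lamin B receptor that anchors heterochromatin at the inner membrane, held 2.37, 3.11 and 2.89 with siSRC4 and 7.36, 6.84 and 7.50 in the control, a 2.59-fold lower signal, while at PD30 it was 1.62-fold higher. SUN2, which links lamins to nesprins, was 1.96-fold higher with siSRC4 (61.5 ± 2.84 against 31.4 ± 2.12). SYNE3 was 1.41-fold lower, and VRK1, a kinase of the nuclear envelope factor BANF1 that was named after its values were seen, 1.55-fold lower. Of heterochromatin genes KMT5A, a histone H4 methyltransferase, was 1.61-fold lower with siSRC4, SMCHD1 1.34-fold lower with libraries that overlapped, and KMT5C, under a signal of 5 and named after its values were seen, 1.76-fold higher. The remaining gene was the histone chaperone SUPT16H, 1.48-fold lower. No difference between the siRNAs was tested for these genes.

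**Figure D4:**
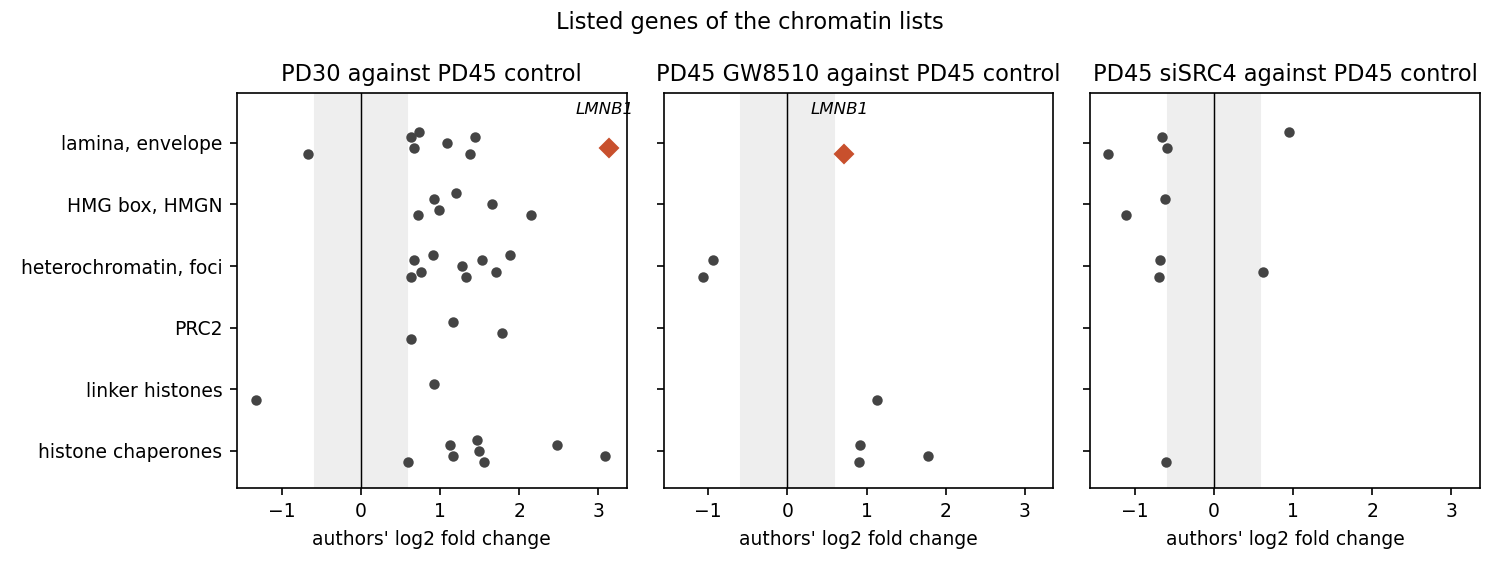
Authors' log2 fold change against the PD45 control (horizontal axes) of every gene of 6 chromatin lists (rows) that is listed for PD30, GW8510 or siSRC4; the vertical position within a row has no meaning, and the grey band marks folds under 1.5, which the tables leave out. LMNB1 (diamond) is at 3.13 for PD30 and 0.71 for GW8510, and all but 2 of the 35 other genes for PD30 are to the right of 0.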

How the data were processed

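RNA sequencing tables of 15 libraries were used as deposited. Per the submitters' processing notes, CASAVA, HISAT2, StringTie, RSEM, DESeq2 and edgeR were used, with roles not given, and the build named is GRCm38, a mouse assembly. Every gene identifier is human, so no coordinates were taken from the tables, and printed windows are RefSeq's. Per the file headers, the authors deposited a fold ratio, a log2 fold change, a p-value and adjusted p-value, and a normalized signal per library with 2 decimals. The number of genes tested by the authors was inferred from the adjusted p and p of the first row. All 5100 control values that tables share were identical.

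Group means, SD and ratios were computed with Python 3.11.15, numpy 2.4.6, pandas 2.3.3 and scipy 1.17.1. GW8510 and PD30 were compared with limma 3.58.1 (R 4.3.3), fitted to log2(signal + 1) values with its trend option over the genes in both tables with a mean signal of at least 1 and the 9 libraries involved, after the script was tested on simulated data. Differences on this scale understate the change of low genes. Its p-values and an exact permutation test were computed as designed but are not reported, since the genes were chosen with these values known. Errors reflect only how much the libraries of a group vary, possibly for technical reasons.

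The 3 genes and the lists were chosen with earlier results of these data known. Of 155 list symbols 144 matched an identifier, and the 11 others are older names of genes already held. Named list genes are the 4 largest by authors' fold per list and table, among those with a higher group mean of at least 5. Also named are the 5 genes most alike to each member by correlation. Some list genes outside this rule were named after their values were seen. They are SYNE1 and LBR at PD30, ASF1B, CHAF1B and CENPA with GW8510, and TOX, VRK1 and KMT5C with siSRC4.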

Additional observations from a re-analysis of the deposited data

How the results depend on the processing

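Against the PD45 control, 39 of 40 alternative values for HMGA1, HMGA2 and LMNB1 stayed within 1 SD of the value as reported and none changed direction. The SD here combines the spread of log2 signals between libraries in both groups. Most of the alternatives leave out 1 library, which can hardly move a mean of 3 libraries by that much. It also cannot change the direction where libraries do not overlap, so these counts say little about robustness. The exception was LMNB1 at PD30, with a log2 ratio of 3.06 from mean signals and 2.53 as a difference of mean log2(signal + 1), where the added 1 is large beside a control mean of 1.85. Leaving out 1 library at a time gave log2 ratios from 2.94 to 3.15 for LMNB1 at PD30, 0.38 to 0.59 for LMNB1 with GW8510, -1.51 to -1.37 for HMGA2 at PD30, -2.26 to -1.96 for HMGA2 with GW8510 and -0.61 to -0.48 for HMGA1 with siSRC2.

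Between GW8510 and PD30, both genes kept their direction in all 15 alternatives, from -2.52 to -1.86 for LMNB1 and from -0.81 to -0.35 for HMGA2, the last with each library centred on its median. Several of these alternatives cannot move the difference and bear only on its SE. They leave out PD45 control libraries, or change the genes fitted, the trend option or the replicate block. Leaving out 1 library gave -0.81 to -0.49 for HMGA2, nearest to 0 without the GW8510 library of replicate 3, and -2.27 to -2.13 for LMNB1. With the replicate block the differences were -0.68 ± 0.141 (SE) for HMGA2 and -2.18 ± 0.137 for LMNB1. Deviations of same-numbered PD30 and GW8510 libraries correlated at 0.0920, 0.0524 and 0.126, so the numbers were not taken to pair them. For GW8510 and PD45 control libraries the values were higher for replicates 1 and 3, at 0.180, 0.0330 and 0.225. For PD30 and PD45 control libraries they were -0.00858, 0.0140 and -0.0726. At an authors' fold of at least 2, the counts of chromatin list genes fell from 35 to 21 for PD30, from 6 to 3 for GW8510 and from 10 to 2 for siSRC4; fewer genes qualify by construction. No 2 treated groups were compared, and no siRNA group was compared with PD30, because no member is listed in the tables such a comparison needs. Read depth is unknown, and at a signal under 3.1 the precision of LMNB1 at PD45 rests on the 3 libraries alone.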

Other observations

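H1-2, a linker histone gene, was lower at PD30 and higher with GW8510 than in the PD45 control. It held 54.2, 60.4 and 49.6 at PD30, 118, 150 and 150 in the PD45 control and 275, 289 and 268 with GW8510. PD30 libraries were below all control libraries and GW8510 libraries above them, so that H1-2 was 2.54-fold lower at PD30 and 1.99-fold higher with GW8510. HMGA2, which was also higher at PD45 than at PD30, was lower with GW8510.

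KRT19, a keratin of simple epithelia, was lower at PD30 (31.5 ± 2.03 against 135 ± 12.7, SD, n = 3), higher with GW8510 (235 ± 26.95) and lower with siSRC2 (73.6 ± 1.40). In each case the libraries did not overlap those of the control. HCLS1, which encodes an actin regulator of blood cells, had 0.273 ± 0.0208 at PD30, 7.75 ± 0.272 in the PD45 control and 4.74 ± 0.556 with GW8510.

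RPSAP52, a transcribed pseudogene that GENCODE release 29 places on the opposite strand overlapping HMGA2, was also listed lower with GW8510. It held 0.600, 0.830 and 0.480 with GW8510 and 1.56, 1.99 and 1.61 in the PD45 control, and the authors' deposited table gave RPSAP52 a log2 fold change of -1.34 and an adjusted p of 0.0371. RPSAP52 was singled out after its values were seen. None of the 8 genes of the IGF2BP and LIN28 list, RNA-binding proteins of the let-7 and HMGA2 circuit, was listed in any table.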
